A study of Arabidopsis thaliana with 9 samples.

Results

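The cysteine-rich receptor-like kinases (CRKs) form one of the larger receptor kinase families of Arabidopsis thaliana. A typical CRK has an extracellular part made of DUF26 domains, each built around conserved cysteines, a single membrane-spanning stretch and an intracellular serine/threonine kinase. The family is known above all from immunity and oxidative stress: many CRK genes are switched on by pathogens, salicylic acid or reactive oxygen, and several members change cell death, resistance or the response to abscisic acid (ABA) when they are overexpressed or mutated. Most members lie in tandem arrays, in which gene copies stand side by side.

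The genes described here are 41 named loci of this family, CRK1 to CRK34 and CRK36 to CRK42, out of 37336 loci in the count table. The family was chosen by a measured value of these samples: the large fall of CRK30 in ABA against mock was already known, and it ranks 3 from the lowest log2 fold change among the loci tested; the other members follow from the family's locus numbers, whatever their values. That contrast therefore chose the family, and all values of ABA against mock below are a description. A call below (higher, lower) comes from edgeR's quasi-likelihood fit over all loci at a Benjamini-Hochberg adjusted p below 0.05 and serves to sort the members. No p-value is given for a member. In the reference annotation 36 of the 41 loci lie on chromosome 4.

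RNA was taken from whole wild-type (Col-0) seedlings. At 3 days after germination they were put into liquid MS culture medium (3 ml), where they grew for 7 days at 22 °C in cycles of 16 h light and 8 h dark. The treatment was 0.1% DMSO (mock, 3 libraries) or 10 µM ABA (3 libraries), and tissue was collected after 3 h. ABA is a hormone made by plants under water shortage. Whether the ABA medium held DMSO too is not stated in the labels. The series describes the replicates as independent biological ones. Samples treated with a compound named iCB, also at 10 µM, were not analysed here, because no column name matches their labels.

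Total counts ran from 21585450 to 22722904 over the 6 libraries. The labelled tissue was checked by shoot and root markers: 5 photosynthesis genes summed to 20370 to 22180 CPM (counts scaled to a common library size) in mock and 20600 to 23970 in ABA, with 0 of 5 called. The sum of 6 root markers was 215.5 to 295.7 CPM in mock and 175.9 to 186.4 in ABA. A phosphate transporter gene (AT5G43350) was called lower, from a mean of 127.9 to 27.8 CPM. A tonoplast intrinsic protein gene (AT5G47450) was called higher, from 16.4 to 45.3 CPM, and the other 4 were not called. Among 4 guard cell markers (32.91 to 34.68 and 36.13 to 41.48 CPM), 1 was called higher and 3 lower. Of 2 phloem markers (59.34 to 63.53 and 159.9 to 166 CPM), SUC2 was higher and APL lower. No marker was at 0 in either group, and the part of tissue makeup in the results below was not tested. In whole seedlings fewer cells of a type and less RNA per cell cannot be told apart.

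The coding sequences show what the family shares and where its copies are alike. Reference coding sequences (RefSeq annotation of TAIR10.1, matched by locus for all 41 members) were searched in frame for a cysteine codon, 8 further codons, a second cysteine codon, 2 codons and the last cysteine codon, the pattern at the core of a DUF26 domain. It occurred at 2 places in 37 members, at 1 place in CRK24 and CRK27, at 3 in CRK23 and at 4 in CRK17. The last 2 of CRK17 equal those of CRK16 base for base, and the annotated loci of this pair overlap. The second of these 39-base stretches is printed for 8 members that the results turn on, with the 3 cysteine codons in capitals. The first 5 belong to genes that were lower in ABA, CRK2 to one that was lower by little, and CRK36 and CRK10 to genes that were higher.
CRK30: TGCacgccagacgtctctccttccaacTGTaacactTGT
CRK29: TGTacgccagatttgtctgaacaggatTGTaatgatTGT
CRK28: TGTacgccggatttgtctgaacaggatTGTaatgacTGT
CRK40: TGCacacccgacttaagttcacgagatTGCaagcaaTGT
CRK6: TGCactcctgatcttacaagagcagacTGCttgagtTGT
CRK2: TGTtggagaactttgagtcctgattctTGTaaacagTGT
CRK36: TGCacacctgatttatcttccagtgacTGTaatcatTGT
CRK10: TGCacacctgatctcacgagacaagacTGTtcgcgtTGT

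Over these 39 bases CRK28 and CRK29 differed at 2 positions, and CRK13 and CRK22, both described below, at 0. Over whole coding sequences the median identity of the 820 pairs of members was 58.2% of the shorter sequence, and 13 pairs reached 80%. The highest was 90.9%, for CRK8 and CRK9. These have 3132 and 798 coding bases, so that identity covers only part of CRK8. Since the authors' handling of reads with several matches is not given, shared stretches matter for the counts: 17 members shared no run of 50 coding bases with another member, CRK30 and CRK12 among them, while 6 members shared over 10% of their 50-base runs. These were CRK6 (18.9%), CRK8 (11.3%), CRK13 (18.5%), CRK16 (33.5%), CRK17 (25.1%) and CRK22 (18.9%). Their values are less certain for this reason, and by how much was not tested. CRK16 and CRK17 overlap by 1190 bases on the same strand, and CRK28 and CRK29 by 470. Runs shared by such a pair can be the same genomic bases, annotated under both loci. CRK10 and CRK11 overlap by 32 bases on opposite strands, and CRK25 overlaps a neighbouring gene, AT4G05190, by 492 bases on opposite strands. The library kit keeps strand, but whether counting used it is not given, so reads from such opposite pairs cannot be told apart here.

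Most CRK genes that were expressed had less transcript after 3 h of ABA. Of the 31 members that passed the filter on low counts, 22 were called lower, 3 higher and 6 neither, with a median log2 fold change (ABA minus mock) of -1.15. A gene can pass this filter by the libraries of 1 group alone, as CRK4, CRK6, CRK8 and CRK30 did by mock and CRK32 by ABA. Such genes could enter the test only as a fall or, for CRK32, as a rise. Over all 21092 loci tested, 29.4% were called lower and 31% higher, and the median was -0.01. Calls in either direction made up 60.4% of all loci. Among called members, 16 were lower by 1 or more on the log2 scale and 8 by 2 or more, while 2 were higher by 1 or more. Over all 21092 loci tested, 1847 were called lower and 2471 higher by 1 or more. For 2 or more, no count over all loci was made. The mock and ABA libraries did not overlap for 26 of the 31 members, 23 of them lower in ABA, against 67.9% of all loci tested. The libraries are TMM-scaled, which sets the bulk of genes near 0; with library totals the median over all loci was -0.24, that of the CRK genes -1.38, and 24 members were lower and 2 higher.

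**Figure D1:**
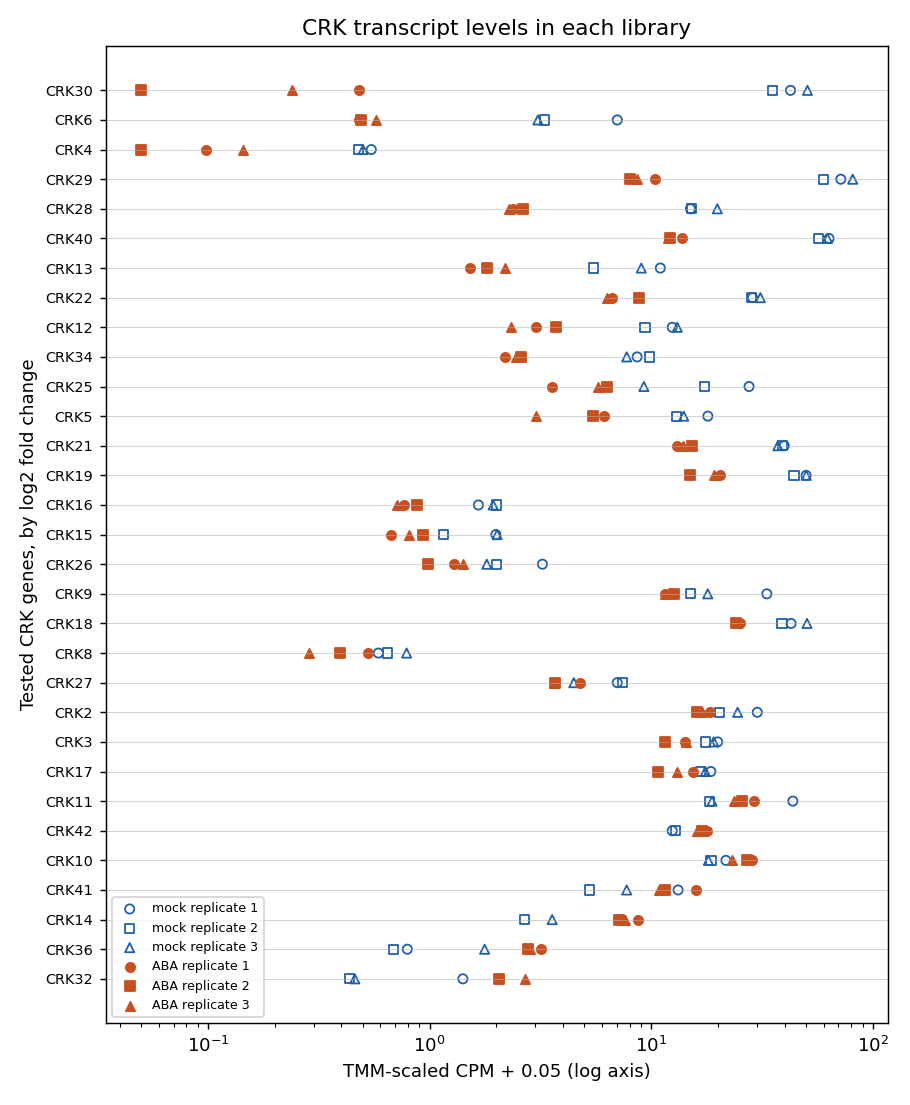
TMM-scaled CPM plus 0.05 (log axis) of the 31 tested CRK genes in each of 3 mock libraries (open blue) and 3 ABA libraries (filled orange), genes ordered by log2 fold change. The ABA points lie left of the mock points for 23 genes without overlap, farthest for CRK30, and right of them for CRK10, CRK36 and CRK32.

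Summed over all 41 members, CRK transcript was 662, 519 and 599 CPM in the mock libraries and 282, 257 and 252 CPM in the ABA libraries. The groups did not overlap, and the mock mean was 2.25 times the ABA mean. In mock, the 5 members with the highest level per kb of exon held 45.2% of this sum, and in ABA the same 5 held 24.4%. These 5 were picked by their mock level and include CRK30, so a lower share in ABA was partly built in.

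CRK30 (AT4G11460), for which no role is given here, had the largest fall of the family. It stood at 42.5, 35.3 and 50.7 CPM in the mock libraries and at 0.430, 0 and 0.189 CPM in the ABA libraries. It was thus one of the family's abundant transcripts in mock (rank 5 per kb of exon) and close to absent in ABA. The log2 fold change was -7.65 ± 0.41 (SE). It rests on 13 counts in the ABA libraries against 3094 in mock, so this SE is too small; the ratio of the summed counts was 206, with an exact 95% interval of 121 to 388 that covers counting error only. Without ABA replicate 1, which held most of the ABA counts, the log2 fold change was -8.74, and in limma-voom it was -8.30. CRK30 shares no 50-base coding run with another member.

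CRK29 (AT4G21410) and CRK28 (AT4G21400) are adjacent copies, 86.1% identical in coding sequence. CRK28 associates with itself, with CRK29 and with the co-receptor BAK1, and raises responses to bacterial flagellin when overexpressed. CRK29 stood at 71.8, 60.0 and 81.2 CPM in mock and at 10.3, 7.98 and 8.62 CPM in ABA. It had the highest level per kb of exon of all members in mock and fell by 2.98 ± 0.14 on the log2 scale. CRK28 stood at 15.0, 15.2 and 19.8 CPM in mock and at 2.34, 2.59 and 2.23 CPM in ABA, a fall by 2.80 ± 0.15. Both genes were well separated between the groups, with tight ABA values. BAK1 (AT4G33430) itself, the partner of many receptors, was at 72.5 ± 7.17 CPM in mock and 70.4 ± 2.85 in ABA (SD, n = 3) and was not called. The third gene of this locus group, CRK27 (AT4G21230), fell by 0.65 ± 0.21; its groups overlapped, and its call was lost without mock replicate 1 or 2 or ABA replicate 2 or 3 (log2 fold changes of -0.57, -0.52, -0.59 and -0.58).

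CRK5, CRK19, CRK4 and CRK6, known from cell death or oxidative stress, were called lower, while CRK20 and CRK7 were not tested. CRK5 (AT4G23130), whose overexpression causes cell death and makes plants hypersensitive to ABA, stood at 17.98, 12.96 and 13.98 CPM in mock and 6.11, 5.43 and 2.98 CPM in ABA. Every ABA library was below every mock library, and the log2 fold change was -1.63 ± 0.26. CRK19 (AT4G23270), which acts alike in overexpression, stood at 50.02, 44.12 and 50.07 CPM in mock and 20.5, 15.0 and 19.2 CPM in ABA. It was among the most abundant members in both groups and fell by 1.40 ± 0.12. CRK4 (AT3G45860), another gene of that kind, was nearly silent, at 0.496, 0.426 and 0.451 CPM in mock and 0.048, 0 and 0.095 CPM in ABA. It was called lower on 33 mock counts and 3 ABA counts, a ratio of 9.54 with an exact 95% counting interval of 2.99 to 48.6. CRK4 passed the filter on low counts by its mock libraries alone, so it could enter the test only as a fall. Under a stricter filter (at least 1 CPM in 3 libraries) it was not tested. Its fitted log2 fold change of -3.11 was -3.96 without ABA replicate 3.

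CRK20 (AT4G23280), needed for full susceptibility to a bacterial pathogen and 89.5% identical to CRK19, was not tested. It stood at 3.76, 0.128 and 0.615 CPM in mock and 0.096, 0.098 and 0 CPM in ABA. Most of its 109 mock counts came from mock replicate 1, and it held 4 counts in ABA. CRK6 (AT4G23140), which protects against extracellular oxidative stress, stood at 6.99, 3.24 and 3.03 CPM in mock and 0.430, 0.441 and 0.521 CPM in ABA. Mock replicate 1 was the highest here too, but all ABA values were several times lower, and the log2 fold change was -3.24 ± 0.42. CRK6 passed the filter on low counts only through its mock libraries, so it could enter the test only as a fall. Its neighbour CRK7 (AT4G23150), of like function, held 10 counts in mock and 5 in ABA and was not tested.

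CRK13 (AT4G23210), whose overexpression brings on salicylic acid dependent resistance, stood at 11.0, 5.46 and 8.98 CPM in mock and 1.48, 1.76 and 2.13 CPM in ABA. The groups did not overlap, and it fell by 2.24 ± 0.28. CRK22 (AT4G23300) stood at 28.6, 28.3 and 31.1 CPM in mock and 6.59, 8.76 and 6.25 CPM in ABA, a fall by 2.03 ± 0.12. Of the 50-base coding runs of CRK13, 18.5% occur in other members. CRK12 (AT4G23200) stood at 12.4, 9.34 and 13.1 CPM in mock and 2.96, 3.67 and 2.27 CPM in ABA. It fell by 1.97 ± 0.20 and shares no such run. CRK40 (AT4G04570) stood at 63.5, 57.1 and 62.5 CPM in mock and 13.8, 12.1 and 11.8 CPM in ABA. It was among the most abundant and most evenly measured members, and it fell by 2.28 ± 0.08.

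CRK2 (AT1G70520), which phosphorylates the NADPH oxidase RBOHD and acts in immunity and salt tolerance, was expressed at a moderate level in both groups. It stood at 30.1, 20.3 and 24.5 CPM in mock and 18.5, 16.0 and 17.0 CPM in ABA, lower without overlap by 0.54 ± 0.14. Its neighbour on chromosome 1, CRK3 (AT1G70530), fell by 0.50 ± 0.10. RBOHD (AT5G47910), which makes extracellular superoxide, fell by 1.20 ± 0.15, from 82.7 ± 18.2 to 36.1 ± 1.71 CPM.

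Of the other members called lower, CRK18 (-0.85 ± 0.10), CRK21 (-1.47 ± 0.08) and CRK34 (-1.87 ± 0.14) had small errors. CRK15 and CRK16, both under 2 CPM in every library, stood at -1.15 ± 0.30 and -1.30 ± 0.23. CRK17, whose annotated locus overlaps that of CRK16, stood at -0.43 ± 0.12. CRK25 (-1.81 ± 0.48) ranged from 9.23 to 27.6 CPM over the mock libraries; its call was lost in limma-voom (-1.71), without mock replicate 2 (-1.84) and without either of ABA replicates 1 (-1.61) and 3 (-1.88). CRK26 (-0.96 ± 0.29) lost its call without mock replicate 1 (-0.65) or ABA replicate 2 (-0.82).

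The 3 genes called higher were CRK36, CRK32 and CRK10. CRK36 (AT4G04490) binds and phosphorylates the kinase ARCK1, and both act as negative regulators of ABA and osmotic stress signalling. CRK36 stood at 0.744, 0.640 and 1.72 CPM in mock and 3.15, 2.74 and 2.79 CPM in ABA. The groups did not overlap, and it rose by 1.47 ± 0.34. ARCK1 (AT4G11890, also CRK45), which is not among the 41 loci, rose by 1.69 ± 0.36, from 4.73 ± 2.26 to 15.3 ± 3.58 CPM. These 2 partners thus were both higher in ABA, while most of the family was lower.

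CRK32 (AT4G11480) stood at 1.36, 0.384 and 0.410 CPM in mock and 2.00, 2.01 and 2.65 CPM in ABA. Mock replicate 1 lay between the other mock libraries and the ABA libraries. It rose by 1.62 ± 0.44, by 2.47 without mock replicate 1, and was not called without ABA replicate 3 (1.47). It stands 2 genes from CRK30 in the same array, so the largest fall and the largest rise of the family lie in one tandem group. CRK32 passed the filter on low counts only through its ABA libraries, so it could enter the test only as a rise. CRK10 (AT4G23180), a mutant form of which switches on defence and stunts growth, stood at 21.7, 18.6 and 18.1 CPM in mock and 28.5, 26.97 and 23.0 CPM in ABA. It rose by 0.43 ± 0.10 with TMM scaling, but its call was lost when libraries were scaled by their totals (0.20) or by upper quartiles (0.22).

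**Figure D2:**
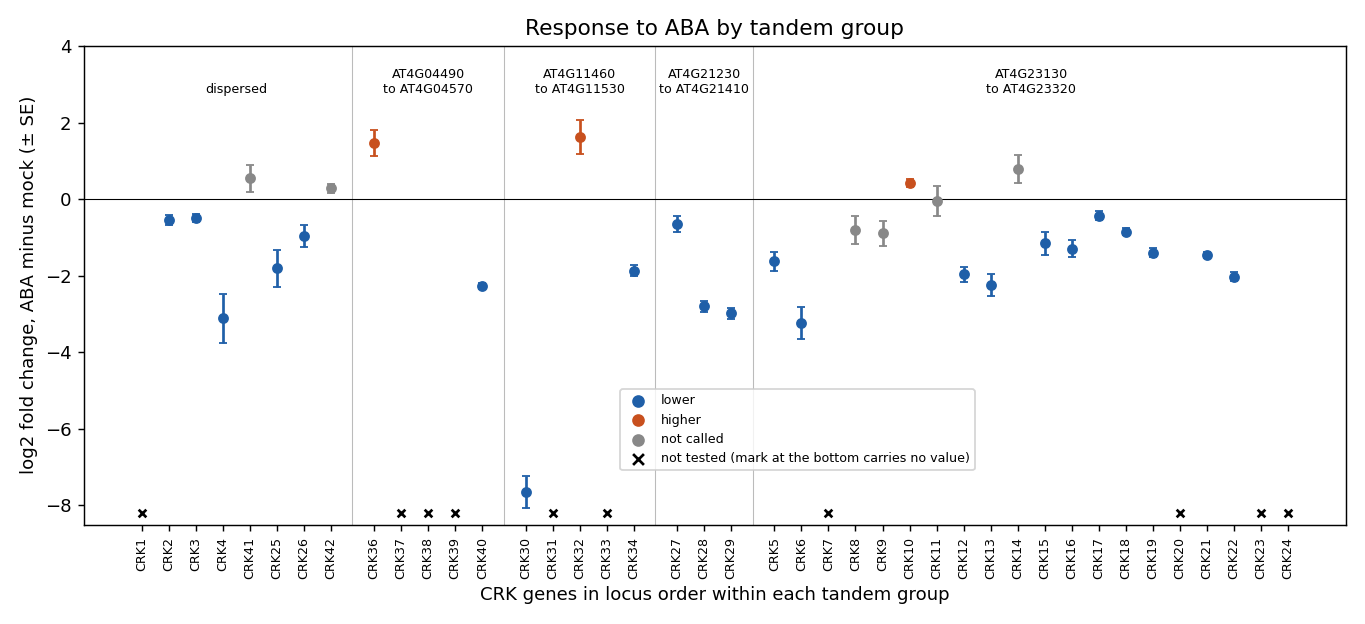
Log2 fold change, ABA minus mock, with SE for each CRK gene (blue lower, orange higher, grey not called). Genes are in locus order within 4 locus groups on chromosome 4, with the dispersed members apart. Crosses at the bottom mark the 10 genes not tested. CRK30 at -7.65 and CRK32 at 1.62 share a group.

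By position, lower calls were found in every group. Of the 20 genes CRK5 to CRK24, which stand in one array with 1 other annotated coding gene among them, 16 were tested: 11 were lower, 1 higher and 4 not called, with a median of -1.22. In the array CRK30 to CRK34, 3 of 5 genes were tested, 2 lower and 1 higher (median -1.87). In CRK27 to CRK29 all 3 were lower (median -2.80), but 16 other coding genes stand between CRK27 and CRK28. In CRK36 to CRK40, 2 of 5 were tested, CRK40 lower and CRK36 higher. Of the 8 dispersed members 7 were tested, 5 of them lower (median -0.54). Tandem copies share sequence and are not independent of each other.

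Genes in or next to these locus groups had calls in both directions. Among 45 non-member coding loci inside the 4 locus groups or within 3 genes of their ends, 24 were tested. Of these, 6 were lower, 4 higher and 14 not called, where 29.4% of all loci tested were lower and 31% higher. Beside the array of CRK5 to CRK24, GSH1 (AT4G23100), of glutathione synthesis, and AT4G23330 were both not called, at -0.11 ± 0.07 and -0.05 ± 0.09. Between CRK27 and CRK28, B120 (AT4G21390), a lectin receptor kinase gene, fell by 1.57 ± 0.19. MYB102 (AT4G21440), a transcription factor gene on the far side of CRK29, rose from a mean of 0.028 CPM to 35.1 CPM. Its mock mean is below the 0.123 CPM that 3 counts make in mock replicate 3, so its level in mock is near 0 and poorly measured. These neighbours were named after their values were seen.

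Within the arrays, some copies of similar sequence differed in level. CRK19 was abundant where CRK20 held 113 counts over 6 libraries. CRK40 was at 61.0 ± 3.42 CPM in mock, whereas CRK39 (AT4G04540), 86.5% identical in coding sequence, held 14 counts in mock and 4 in ABA. CRK32, which rose, held 52 counts in mock and 139 in ABA, and its neighbour CRK31 (AT4G11470), 85.6% identical, held 31 and 13, so this pair was close in mock. Of the 13 pairs with at least 80% identity, only 5 had both genes tested.

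Per kb of exon, the order of the members changed between the groups. The highest 5 in mock were CRK29 (23.1 CPM per kb), CRK18 (19.9), CRK40 (19.7), CRK19 (18.4) and CRK30 (17.4). In ABA they were CRK18 (11.1), CRK11 (10.3), CRK10 (10.3), CRK2 (7.14) and CRK19 (6.96). CRK30 went from rank 5 to rank 32 of 41 and CRK29 from 1 to 14, while CRK10 went from 12 to 3. The levels of CRK11 and CRK10 in ABA were the same within their spread. By mean level over the 6 libraries, 11 of 16 members with at least 10 CPM were lower, and 10 of 13 members between 1 and 10 CPM. Of the 12 members under 1 CPM, 1 was lower, 1 was not called and 10 were not tested.

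**Figure D3:**
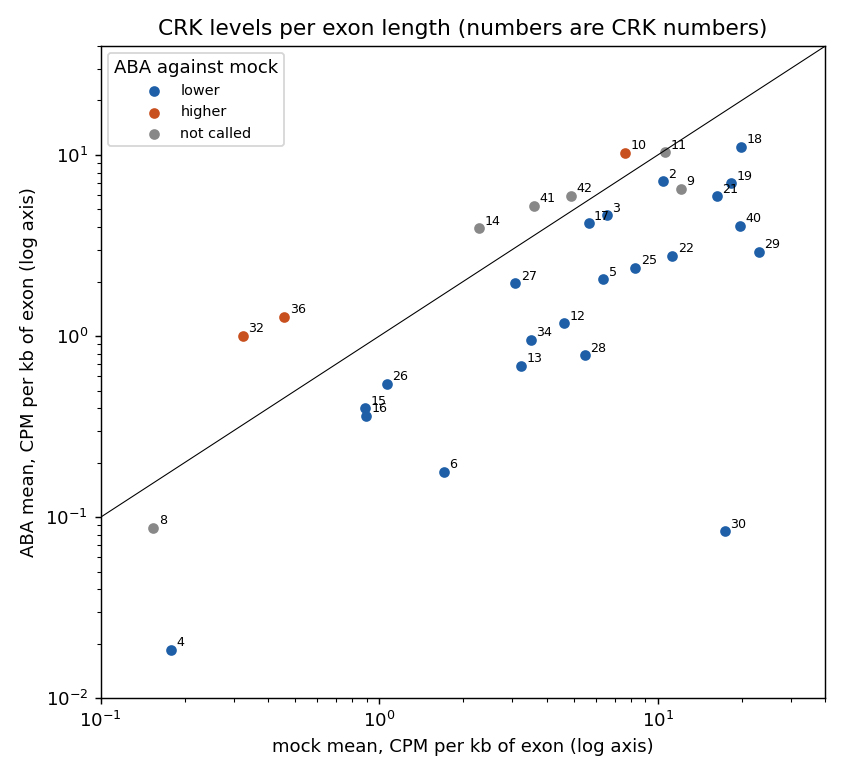
Mean level in ABA against mean level in mock, both in CPM per kb of exon on log axes, for the 31 tested CRK genes, each point marked with its CRK number; the line marks equal levels. CRK30 lies farthest below the line at 17.4 and 0.084 CPM per kb. Above it lie CRK10, CRK32 and CRK36, called higher, and CRK14, CRK41 and CRK42, not called.

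One mock library stood above the others for many CRK genes. Mock replicate 1 was the highest mock library for 17 of the 31 tested members (54.8%), against 31.1% of all loci tested. It exceeded the mean of the other 2 mock libraries by over 1.5 times for 9 members (29%), against 4.45% of all loci. The largest ratio was that of CRK32 (3.44); CRK14, CRK11, CRK6, CRK25, CRK41 and CRK9 lay between 2.02 and 2.37. Without mock replicate 1, 21 members were called lower and 6 higher. CRK11, CRK14 and CRK41 were then called higher (0.50, 1.33 and 0.97) and CRK9 lower (-0.47).

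**Figure D4:**
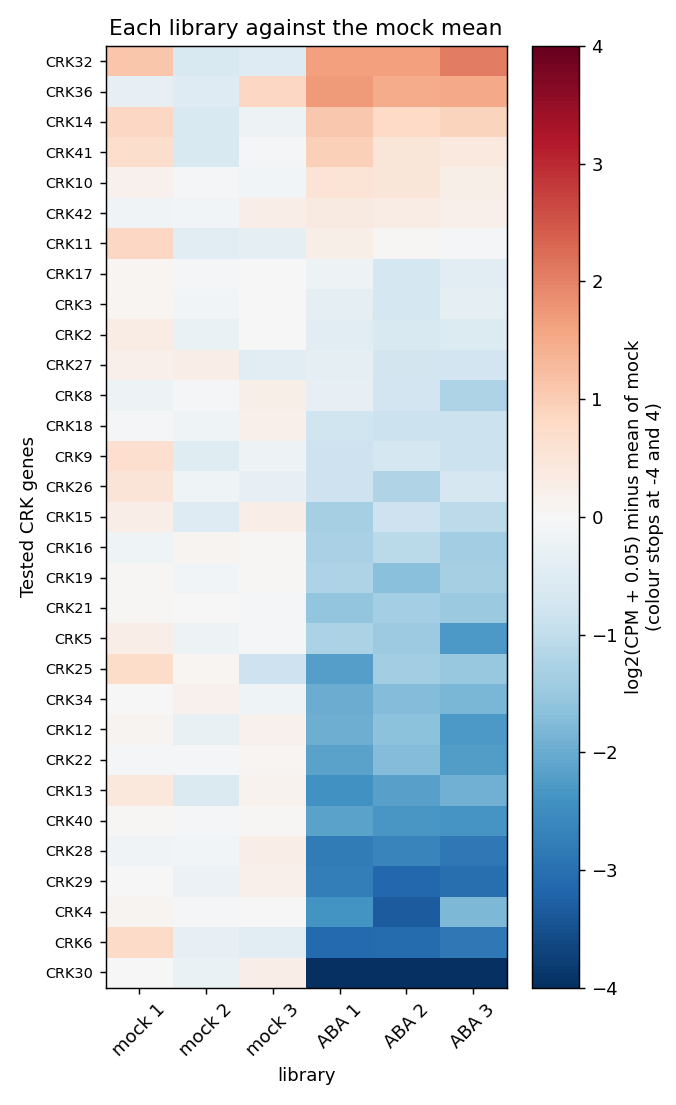
Log2 of CPM plus 0.05 in each library minus the mean of the 3 mock libraries (colour, stopped at -4 and 4), for the 31 tested CRK genes. Within the mock libraries, replicate 1 is the highest for 17 genes. The ABA libraries are below the mock mean for most genes and above it for some, CRK10, CRK32 and CRK36 among them.

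The 6 tested members without a call were CRK8, CRK9, CRK11, CRK14, CRK41 and CRK42. CRK11 (AT4G23190) stood at 43.6, 18.3 and 18.8 CPM in mock and 29.2, 25.6 and 23.7 CPM in ABA. The mock libraries lay on both sides of the ABA libraries; the log2 fold change was -0.04 with a 95% interval of -0.80 to 0.73, so a change of moderate size either way was not detectable. CRK14 (AT4G23220) was at 0.79 (0.08 to 1.499), CRK41 (AT4G00970) at 0.54 (-0.16 to 1.24) and CRK42 (AT5G40380) at 0.28 (0.05 to 0.51). CRK9 (AT4G23170), whose coding sequence of 798 bases is the shortest of the family, was at -0.89 (-1.52 to -0.26), and its ABA libraries all lay below its mock libraries. CRK8 was at -0.82 (-1.53 to -0.10) on fewer than 1 CPM. These intervals come from the normal distribution and, with 3 libraries a group, are too narrow; they can leave out 0 where the adjusted p did not pass. CRK9 was called lower in DESeq2, with library totals, with upper-quartile factors, under a stricter filter (at least 1 CPM in 3 libraries) and without mock replicate 2. CRK8 was called lower with library totals and upper-quartile factors. CRK14 was called higher in DESeq2, in limma-voom and with the replicate number as a block, CRK41 with that block, and CRK42 without mock replicate 3 (0.40).

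The 10 untested members held 0 to 113 counts over the 6 libraries, 7 of them at most 20. CRK1 and CRK33 had no count, which allows up to 0.143 CPM in ABA replicate 1 (3 counts, counting error only). CRK37 held 0 counts in mock and 2 in ABA, CRK38 9 and 1, and CRK23 4 and 2. CRK24 held 52 and 16 and was called lower where no filter was used (-1.48) and without mock replicate 2 (-1.86). CRK20 was called lower in DESeq2 (-4.55) and without mock replicate 2 (-4.98). Mock replicate 2 was the lowest mock library of both genes, at 0.256 CPM for CRK24 and 0.128 CPM for CRK20. Without it both passed the filter by mock alone, so each could enter that test only as a fall.

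Promoters were read as 250 bases before to 50 bases after the annotated gene start in TAIR10.1, for 27443 nuclear coding genes. The annotated start need not be the start used in these seedlings. Short motifs were counted on both strands: ACGTG, the core of the ABA response element bound by bZIP factors, and TTGAC, the core of the W-box bound by WRKY factors. Matches may overlap, so CACGTG counts at both of its positions. ACGTG was present in 12 of 41 CRK promoters (29.3%) and in 26.7% of all promoters. TTGAC was present in 31 of 41 (75.6%) and in 50.5% of all. Among the 22 genes called lower, 6 had ACGTG and 13 had TTGAC. All 3 genes called higher had TTGAC and 0 had ACGTG, and all 6 tested genes without a call had TTGAC. CRK30 had neither in this window.

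The promoters of CRK11, CRK41 and CRK13 show the range, with motif letters in capitals. The window of CRK11, not called, held the most TTGAC matches of the family (7 matches; TAIR10.1 chr4:12143809-12144108, minus strand). That of CRK41, not called, held the most ACGTG matches (6 matches beside 4 of TTGAC; chr4:418077-418376, plus strand). That of CRK13, called lower, held ACGTG at 2 places and no TTGAC (chr4:12151589-12151888, minus strand).
CRK11: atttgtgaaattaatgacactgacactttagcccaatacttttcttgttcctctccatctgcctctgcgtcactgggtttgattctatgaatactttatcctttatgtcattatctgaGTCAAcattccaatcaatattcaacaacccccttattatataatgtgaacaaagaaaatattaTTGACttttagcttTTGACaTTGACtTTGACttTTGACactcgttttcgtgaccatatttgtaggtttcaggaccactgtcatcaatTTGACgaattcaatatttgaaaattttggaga
CRK41: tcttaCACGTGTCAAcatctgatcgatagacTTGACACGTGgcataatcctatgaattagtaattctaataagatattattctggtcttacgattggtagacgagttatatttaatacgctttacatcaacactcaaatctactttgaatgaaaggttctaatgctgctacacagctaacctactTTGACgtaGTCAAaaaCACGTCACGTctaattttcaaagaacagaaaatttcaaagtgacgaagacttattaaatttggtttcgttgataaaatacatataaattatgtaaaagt
CRK13: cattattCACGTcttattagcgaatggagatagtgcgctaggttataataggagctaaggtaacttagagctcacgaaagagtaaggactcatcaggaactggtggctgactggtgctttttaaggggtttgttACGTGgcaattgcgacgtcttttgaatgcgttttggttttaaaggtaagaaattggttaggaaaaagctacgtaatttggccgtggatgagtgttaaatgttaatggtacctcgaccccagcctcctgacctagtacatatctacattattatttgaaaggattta

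Other genes of receptor signalling, and other genes with DUF26 domains, had calls in both directions. Over all loci tested, 29.4% were lower and 31% higher. Of 26 receptors and co-receptors of immunity and of other signalling, 14 were lower (53.8%) and 2 higher (7.69%), with a median of -0.77. WAK2 (AT1G21270), a pectin-binding kinase, fell by 3.30 ± 0.09, PSY1R (AT1G72300), a receptor kinase of peptide signalling, by 1.57 ± 0.08, and EFR (AT5G20480), the receptor for bacterial elongation factor Tu, by 1.19 ± 0.09. The 2 that rose were RPK1 (AT1G69270), a receptor kinase of ABA signalling, by 1.58 ± 0.09 and FER (AT3G51550), a receptor of RALF peptides, by 0.45 ± 0.07.

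Of 18 cytoplasmic kinases and NADPH oxidases that act after such receptors, 8 were lower (44.4%) and 5 higher (27.8%), with a median of -0.09; the share higher is near the 31% of all loci. The immune kinase gene PBL1 (AT3G55450) fell by 1.01 ± 0.07 and the MAP kinase gene MPK3 (AT3G45640) by 1.03 ± 0.10. The oxidase gene RBOHF (AT1G64060), which acts in guard cells, rose by 1.00 ± 0.13, in the opposite direction to RBOHD. PBS1 (AT5G13160) rose by 0.54 ± 0.08 and MPK6 (AT2G43790) by 0.37 ± 0.06.

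Of 12 other genes with DUF26 domains, 9 were tested, 3 lower and 3 higher (33.3% each, near the 29.4% and 31% of all loci), with a median of -0.16. They are mostly plasmodesmata-located proteins, which have the cysteine-rich domains but no kinase and act at the channels between cells. PDLP3 (AT2G33330) fell from 36.8 ± 0.76 to 7.84 ± 0.29 CPM, PDLP2 (AT1G04520) by 1.35 ± 0.13 and PDLP6 (AT2G01660) by 0.42 ± 0.12. PDLP8 (AT3G60720) rose by 0.73 ± 0.17 and PDLP1 (AT5G43980) by 0.60 ± 0.20; ARCK1, given above, was the third. These lists differ in size and level from the CRK family, and no difference between lists was tested.

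**Figure D5:**
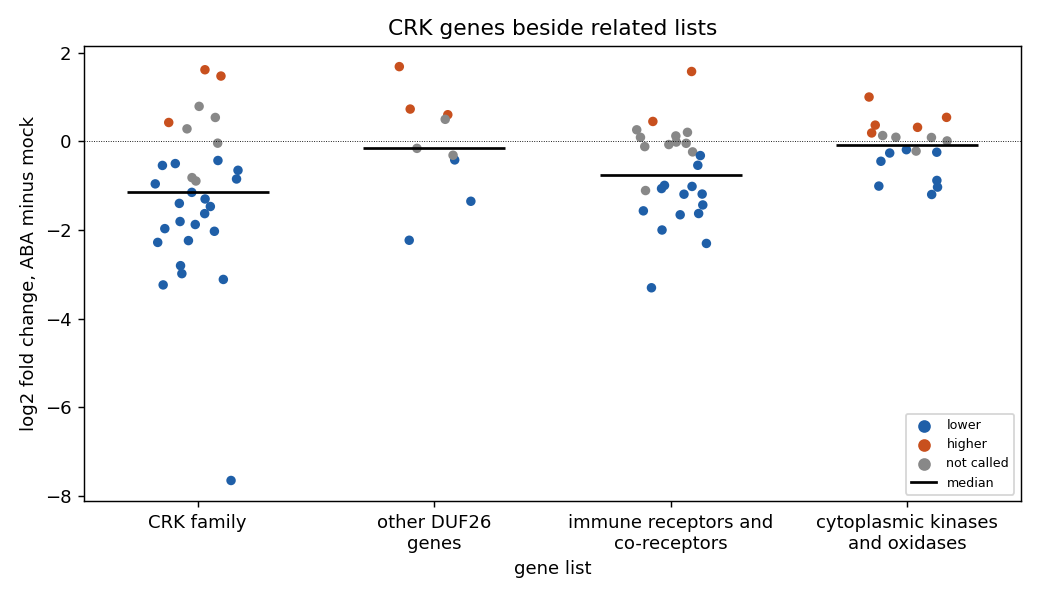
Log2 fold change, ABA minus mock, of the tested genes of 4 lists (points, blue lower, orange higher, grey not called). Bars mark the medians. They are -1.15 for the CRK family, -0.16 for other DUF26 genes, -0.77 for immune and other receptors and co-receptors and -0.09 for cytoplasmic kinases and oxidases. CRK30 at -7.65 lies below all other points.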

How the data were processed

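The authors deposited raw counts, whole numbers of reads per locus for 37336 loci. The submitters' processing notes name the TAIR10 build and STAR, cutadapt, FastQC and DESeq2, without versions. How reads were counted, by which program, strand setting and annotation release, is not given in the sources. Columns for 3 mock and 3 ABA samples were used; a further 3 value columns have names that fit no label and were left out. Counts were fitted in R 4.3.3 with edgeR 4.0.16 (filterByExpr, TMM, robust quasi-likelihood F test), and 21092 loci were tested. An SE is the log2 fold change over the square root of F, too small where a group holds few counts. Levels are TMM-scaled CPM. Names, exon lengths and sequences came from TAIR10.1 by locus (Biopython 1.88); TAIR10 and TAIR10.1 are set side by side by locus only. No 2 replicates agreed within sampling noise (chi-square over degrees of freedom 6.64 to 14.7). The fit was tested on simulated data. Members, lists and tests were chosen with earlier results of these data known. Named genes were CRK30, the 8 next largest changes, called members moving against the majority, 12 members with published roles, and from each other list the 3 smallest adjusted p in each direction plus BAK1, RBOHD and ARCK1. Of 22 listed DUF26 genes, 12 whose reference name matched were kept.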

Additional observations from a re-analysis of the deposited data

How the results depend on the processing

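In all 16 alternatives the CRK genes called lower outnumbered those called higher. The count lower was 20 to 24, or 17 at an adjusted p below 0.01 and 16 where the log2 change also had to reach 1, against 22. The count higher was 3; it was 4 in DESeq2 and limma-voom, 2 under upper-quartile scaling, library totals, the lower p threshold and the fold threshold, and 5 with the replicate number as a block (CRK14 and CRK41 added; CRK25 lost its lower call); leaving out 1 library each gave 2 to 6. The median log2 fold change, -1.15, was -1.30 in DESeq2, -1.36 under upper-quartile scaling and -1.38 under library totals, which move all loci (median -0.22 and -0.24); leaving out 1 library each gave -1.03 to -1.37. The cause was not tested for DESeq2, which tested 37 members. The block was not taken as a pairing: deviations of same-numbered mock and ABA libraries correlated at 0.07, 0.09 and 0.22, each library best with its own number, a hint from the data only. Among values of members named by the rule above under an alternative, 232 kept direction and call, 7 lost a call and 0 reversed. That rule takes in the largest changes, and the p and fold thresholds reuse the main fit, so values there could not reverse. It leaves out CRK9, CRK11, CRK14, CRK25, CRK26, CRK27 and CRK41, whose calls changed in some settings. CRK11 changed direction too, from -0.27 to 0.50 over the settings. Depth limits members under about 1 CPM, where a few counts decide the fold.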
